A study of Mus musculus with 12 samples.

Results

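The regions described here are narrow H3K27me3 domains of mouse epidermis. They are the domains on chromosomes 1 to 19 that were under 10 kb wide in WT and overlapped a Utx-cKO domain by at least 1 bp. The rule found 770 of them, among 827 WT autosomal domains under 10 kb, 5385 WT autosomal domains that overlapped a Utx-cKO domain (14.3%) and 6126 WT autosomal domains in all. They covered 5.84 Mb, or 5.14% of the length of the shared WT domains. Epidermal keratinocytes of female mice, as single cells in suspension, were profiled by CUT&RUN, where a nuclease tethered to an antibody cuts out the DNA it is bound to. Utx-cKO animals carried Cre and floxed Utx alleles (Cre+; Utx fl/fl), and WT animals carried the same floxed alleles without Cre (Cre-; Utx fl/fl). The Cre is driven by Krt14, so that deletion is aimed at keratin-14 expressing tissue and other cells of the suspension need not have lost Utx. The labels give no ages and name 3 H3K27me3 and 3 IgG libraries of each genotype. The values come from 2 peak lists, 1 per genotype, in which the authors merged all samples of a group. There are therefore no replicates behind any value and no test between genotypes, and how deeply the libraries were sequenced is unknown. Positions are those of mm10 (GRCm38).

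H3K27me3 is laid down by Polycomb repressive complex 2 and is found at silent genes, above all at promoters rich in CpG, the dinucleotide CG. Utx (Kdm6a) is an X-linked enzyme that can remove the mark, and it also belongs to COMPASS-like complexes that methylate histone H3 at lysine 4. In epidermis, Polycomb is known for holding back genes of other lineages in basal progenitors.

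Of the narrow domains with a protein-coding transcription start inside or within 2 kb, more had the start outside than inside. To show what such promoters look like, those of the narrow domains with the highest maximum signal are printed from RefSeq (GRCm38.p6), each running 5′ to 3′ from 250 bases before the start to 50 after it, with every CG in capitals. The first 4 belong to starts outside a WT domain but within 2 kb of it. The distance to the border of that domain was 202 bp for Pou4f1, a POU homeobox factor of sensory neurons. It was 1649 bp for Igf2bp2, an mRNA-binding protein, whose start also lay 152 bp from another narrow domain. For Barhl1, a homeobox factor of the nervous system and inner ear, it was 1433 bp. The Barhl1 start also lay 968 bp from another narrow domain, which held another start of the gene. For Col13a1, a transmembrane collagen, the distance was 908 bp.
Pou4f1 (chr14:104467950-104468249, minus strand): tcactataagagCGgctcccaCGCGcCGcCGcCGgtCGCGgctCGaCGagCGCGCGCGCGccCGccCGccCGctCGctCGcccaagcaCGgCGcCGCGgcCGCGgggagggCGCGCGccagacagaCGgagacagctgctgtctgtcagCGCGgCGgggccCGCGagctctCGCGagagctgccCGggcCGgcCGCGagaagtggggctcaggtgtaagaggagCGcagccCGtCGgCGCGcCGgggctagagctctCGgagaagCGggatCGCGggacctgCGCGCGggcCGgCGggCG
Igf2bp2 (chr16:22163250-22163549, minus strand): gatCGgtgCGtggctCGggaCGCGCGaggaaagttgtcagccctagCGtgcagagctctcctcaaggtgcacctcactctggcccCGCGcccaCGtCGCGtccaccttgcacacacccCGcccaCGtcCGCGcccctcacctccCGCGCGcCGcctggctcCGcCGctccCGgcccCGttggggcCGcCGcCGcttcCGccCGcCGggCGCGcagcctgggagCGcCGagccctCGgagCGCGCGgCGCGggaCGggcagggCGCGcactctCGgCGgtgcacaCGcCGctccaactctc
Barhl1 outer start (chr2:28916619-28916918, minus strand): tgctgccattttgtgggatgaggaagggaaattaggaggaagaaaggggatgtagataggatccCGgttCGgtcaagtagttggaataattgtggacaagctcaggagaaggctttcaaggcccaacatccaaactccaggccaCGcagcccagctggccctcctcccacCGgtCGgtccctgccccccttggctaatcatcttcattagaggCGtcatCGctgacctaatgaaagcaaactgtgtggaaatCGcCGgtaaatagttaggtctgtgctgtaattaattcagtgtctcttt
Col13a1 (chr10:61979059-61979358, minus strand): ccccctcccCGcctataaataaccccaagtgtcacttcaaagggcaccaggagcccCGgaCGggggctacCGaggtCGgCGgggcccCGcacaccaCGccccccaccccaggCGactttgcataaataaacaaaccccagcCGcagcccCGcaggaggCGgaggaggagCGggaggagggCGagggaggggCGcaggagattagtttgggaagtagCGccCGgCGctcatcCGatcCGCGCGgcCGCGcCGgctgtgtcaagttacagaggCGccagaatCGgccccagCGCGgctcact
The promoters of Pou4f1, Igf2bp2, Barhl1 and Col13a1 held 57, 47, 9 and 29 CG. The next 4 belong to starts inside a narrow WT domain, at Acan, the cartilage proteoglycan aggrecan, Vwa5b2, a second start of Barhl1 and Pcdh8, a protocadherin.
Acan (chr7:79052976-79053275, plus strand): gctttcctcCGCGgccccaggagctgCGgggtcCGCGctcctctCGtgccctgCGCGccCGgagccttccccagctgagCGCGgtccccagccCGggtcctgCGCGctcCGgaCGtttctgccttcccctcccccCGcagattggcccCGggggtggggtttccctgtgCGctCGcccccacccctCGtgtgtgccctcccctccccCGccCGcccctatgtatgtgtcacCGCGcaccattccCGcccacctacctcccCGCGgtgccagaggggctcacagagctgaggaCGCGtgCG
Vwa5b2 (chr16:20589903-20590202, plus strand): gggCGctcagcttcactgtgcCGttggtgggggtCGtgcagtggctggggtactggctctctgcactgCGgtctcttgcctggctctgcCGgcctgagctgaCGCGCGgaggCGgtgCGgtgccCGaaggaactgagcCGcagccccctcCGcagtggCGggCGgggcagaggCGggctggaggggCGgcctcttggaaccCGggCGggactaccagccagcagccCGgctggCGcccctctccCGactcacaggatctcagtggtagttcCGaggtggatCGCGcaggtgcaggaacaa
Barhl1 inner start (chr2:28912446-28912745, minus strand): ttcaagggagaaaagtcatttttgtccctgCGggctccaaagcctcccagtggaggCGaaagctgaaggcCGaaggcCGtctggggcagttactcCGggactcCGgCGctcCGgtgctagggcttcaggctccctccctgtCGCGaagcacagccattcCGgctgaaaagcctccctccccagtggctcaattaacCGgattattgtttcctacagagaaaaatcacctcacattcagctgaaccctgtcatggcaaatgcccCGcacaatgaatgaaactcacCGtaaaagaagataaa
Pcdh8 (chr14:79771263-79771562, minus strand): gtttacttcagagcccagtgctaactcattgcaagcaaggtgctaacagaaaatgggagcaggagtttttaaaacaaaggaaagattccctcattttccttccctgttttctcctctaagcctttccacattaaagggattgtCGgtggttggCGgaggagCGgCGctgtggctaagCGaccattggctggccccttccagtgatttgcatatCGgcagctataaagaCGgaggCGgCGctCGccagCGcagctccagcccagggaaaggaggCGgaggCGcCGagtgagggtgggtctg
These held 31, 25, 14 and 14 CG in the same order. By the definition of CpG-rich given with the counts over all starts, each of the promoters printed from inside a domain was CpG-rich, as were those printed from outside except that of Barhl1, so these examples do not show the difference between inside and outside starts that the counts give. The Barhl1 gene had its 2 starts on either side of a border: the inner start lay inside a narrow domain, and the outer start lay in the gap of 2400 bp between that domain and the next.

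The narrow domains were short but high. Their WT width ran from 3100 to 9950 bp with a median of 8000 bp (interquartile range 6400 to 9000 bp). Their median WT maximum signal, the highest coverage in the domain on a scale that the sources used here do not give, was 25.2 (17.4 to 35.3). It was 16.4 (11.2 to 30.1) in shared WT domains of 10 to 40 kb and 39.6 (20.8 to 63.6) in those of 40 kb or wider. By maximum signal the median narrow domain stood at percentile 67.0 of the autosomal WT list, and by total signal, the coverage summed over the domain, at percentile 27.4. The caller's list began at a total signal of 40307, so that a domain of 10 kb needed a mean signal of at least 4.03 to be listed and one of 3100 bp a mean of 13. Short and low domains could therefore not enter the list, and the part of that limit in the order of the width classes was not tested. The median over narrow domains of their mean signal was 7.38. Among narrow domains the median maximum signal was 35.8 for the 28 domains under 4 kb and 18.6 for the 198 of 9 kb or more.

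**Figure D1:**
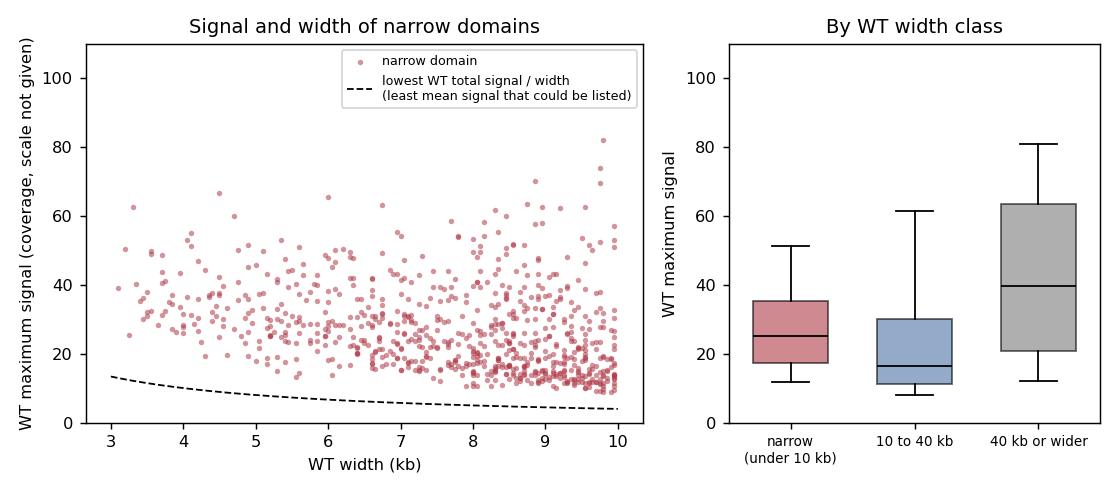
WT maximum signal (coverage, scale not given) of each narrow domain against its WT width in kb, with a dashed line at the lowest listed WT total signal divided by the width, and boxes of WT maximum signal for shared WT domains under 10 kb, of 10 to 40 kb and of 40 kb or wider (median, quartiles, whiskers at the 5th and 95th percentiles). The median is 25.2 in narrow domains, 16.4 in domains of 10 to 40 kb and 39.6 in the widest class. By the way the dashed line is drawn, no listed domain can fall below it.

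The 10 highest narrow domains included those at Pou4f1, Acan, Tbx2, Barhl1 and Igf2. The domain between Pou4f1 and Obi1, a ubiquitin ligase of replication origins, was highest (chromosome 14, 104468201 to 104478000), with a maximum signal of 81.4 in Utx-cKO and 82.0 in WT. It was 10550 bp wide in Utx-cKO and 9800 bp in WT, and the maxima of both lists lay 0 bp apart. Maximum signals are given on each list's own scale, and a difference between lists is not read from them. The domain at Acan (chromosome 7, 79047101 to 79056850) reached 70.6 in Utx-cKO and 74.0 in WT, and its width was 30050 bp in Utx-cKO and 9750 bp in WT. At Tbx2, a T-box factor of heart and limb, the domain (chromosome 11, 85833401 to 85837900) reached 74.4 in Utx-cKO and 66.7 in WT, at widths of 10500 bp in Utx-cKO and 4500 bp in WT. These 3 domains stood above percentile 96 of both lists by maximum signal and differed in how far the Utx-cKO domain reached. The imprinted growth factor gene Igf2 carried a domain of 6800 bp in Utx-cKO and 6750 bp in WT (chromosome 7, 142660901 to 142667650), with maxima of 60.2 in Utx-cKO and 63.3 in WT. Igf2bp2 (chromosome 16, 22152801 to 22161650) had widths of 8900 bp in Utx-cKO and 8850 bp in WT. The pair at Barhl1 differed in itself: the first domain (chromosome 2, 28909701 to 28915700) was 7600 bp wide in Utx-cKO and 6000 bp in WT, and the second (28918101 to 28927650) 33550 bp in Utx-cKO and 9550 bp in WT, with a Utx-cKO counterpart that met 2 WT domains. Among the 10 highest, the domain near Dnajc22, a gene for a chaperone cofactor, lay between genes (chromosome 15, 99093801 to 99097100). Its widths were 13250 bp in Utx-cKO and 3300 bp in WT. Neither it nor the first Barhl1 domain, which lay within a gene, had a coding gene end within 2 kb. The remaining 2 were at Vwa5b2, with 19700 bp in Utx-cKO and 9750 bp in WT, and at Pcdh8, with 14150 bp in Utx-cKO and 8750 bp in WT. The last of the 10 places was tied: the domain at Gata5, not counted among them, had the same WT maximum, 62.6, as the second Barhl1 domain and that near Dnajc22.

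With a window of 2 kb, the share of narrow domains at a protein-coding gene end lay between those of the wider classes. A domain was placed at a gene end when either annotated end of a coding gene lay within 2 kb of it. That held for 423 of the 770 (54.9%, exact Clopper-Pearson 95% interval 51.3 to 58.5%), against 45.5% of all shared autosomal WT domains. It held for 41.9% (40.3 to 43.4%) of the domains of 10 to 40 kb and 62.2% (57.6 to 66.6%) of those of 40 kb or wider. A wider domain reaches more gene ends by its length alone, while the window of 2 kb adds more, for its length, to a short one. The share in narrow domains depended on the definition, at 28.7% with the gene end inside the domain, a share not taken for the wider classes. It was 47.5% for domains under 12 kb with the end within 2 kb. Of the other narrow domains, 130 (16.9%, against 19.1% of all shared domains) lay within a coding gene and 217 (28.2%, against 35.5%) between genes. Among the domains of these groups, 89 (11.6% of the 770, against 18.8% of all shared domains) had only a noncoding gene end. The place of maximum signal, which does not depend on width in this way, lay within 5 kb of a coding gene end in 54.9% (51.3 to 58.5%) of narrow domains, in 32.1% (30.6 to 33.5%) of those of 10 to 40 kb and in 43.7% (39.1 to 48.4%) of the widest. Its median distance to the nearest coding gene end was 3875 bp in narrow domains, 17110 bp at 10 to 40 kb and 8189 bp in the widest class. Intervals cover counting error only, and neighbouring domains are not independent.

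High narrow domains lay at genes more often than low ones. When narrow domains were split at the quartiles of maximum signal, 141 of the 189 highest (74.6%, 67.8 to 80.6%) were at a coding gene end, and 68 of the 195 lowest (34.9%, 28.2 to 42%). By width, the share was 71.4% (51.3 to 86.8%) in the 28 domains under 4 kb and 44.4% (37.4 to 51.7%) in the 198 of 9 kb or more. The median maximum signal was 29.1 in narrow domains at gene ends, 25.1 within genes and 19.2 between genes. Narrower domains had higher maximum signals in this list, and the parts of width and signal in the share at gene ends were not tested apart.

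**Figure D2:**
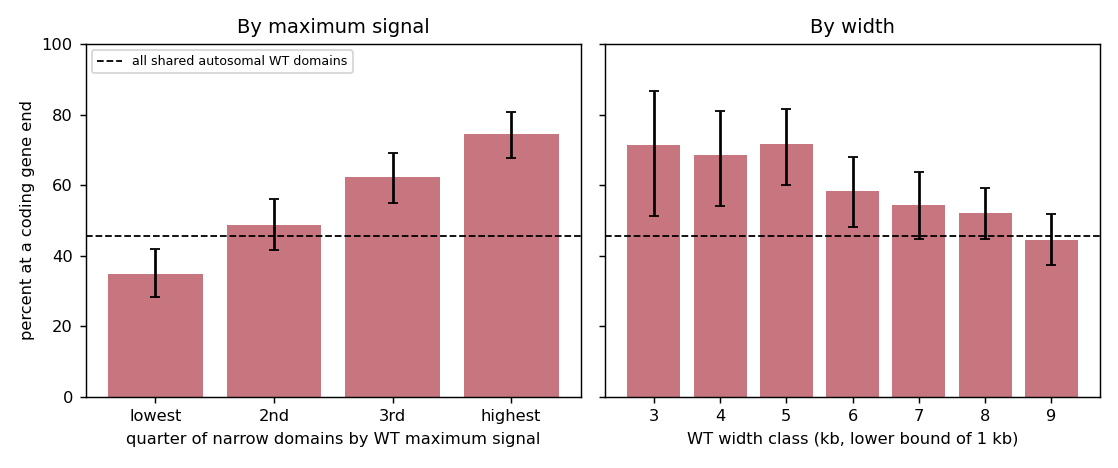
Percent of narrow domains with a coding gene end within 2 kb, by WT maximum signal split at its quartiles and by WT width in steps of 1 kb; error bars are exact 95% intervals and the dashed line is the share over all shared autosomal WT domains, 45.5%. The share runs from 34.9% in the lowest to 74.6% in the highest group by signal, and from 71.4% in the narrowest to 44.4% in the widest step.

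At these genes the narrow domains stopped short of the transcription start more often than wider domains did. Starts and strand were available for 16457 of 20665 autosomal coding genes. A coding start lay inside 123 narrow domains (16.0%, 13.5 to 18.8%), against 22.7% of all shared autosomal WT domains. A start lay inside or within 2 kb of 310 narrow domains, and 187 of these (60.3%, 54.6 to 65.8%) held none. The same share was 24.8% (22.3 to 27.3%) of 1204 domains of 10 to 40 kb and 7.58% (4.4 to 12%) of 211 domains of 40 kb or wider. A short domain has more flank for its length, so the starts were also counted per length. In these counts a start near another domain of its class as well was counted for each. Narrow domains held 24.1 starts per Mb inside and 70.8 per Mb in the 2 kb on either side. Domains of 10 to 40 kb held 14.0 per Mb inside and 25.6 in the flanks, and the widest 10.6 inside and 16.3 in the flanks. The density peaked in the first 500 bp outside the border, at 165 starts per Mb around narrow domains (127 starts), 47.9 at 10 to 40 kb (199 starts) and 32.6 in the widest class (15 starts). In the last 500 bp inside the border, narrow domains had 50.6 starts per Mb.

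**Figure D3:**
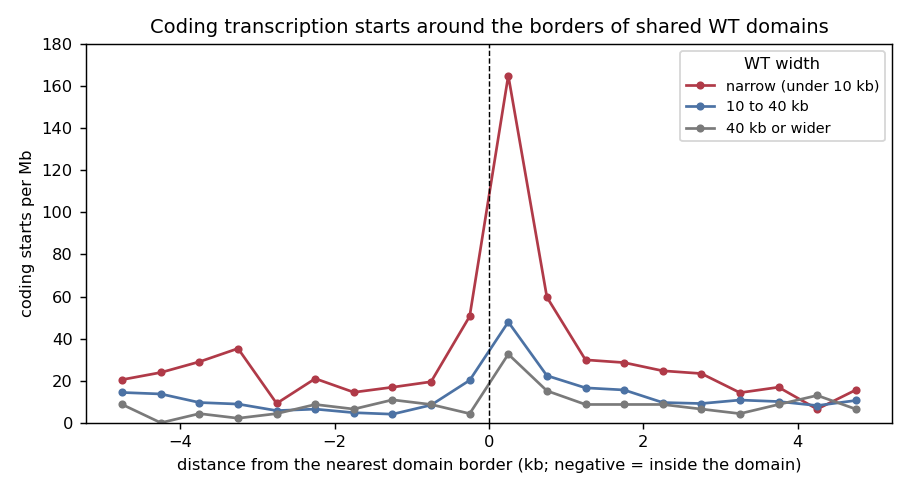
Coding transcription starts per Mb against the distance in kb from the nearest border of a shared WT domain, negative inside the domain, in steps of 500 bp, for domains under 10 kb, of 10 to 40 kb and of 40 kb or wider. Narrow domains reach 165 starts per Mb just outside the border, against 47.9 and 32.6 in the wider classes, and all 3 curves lie below that peak elsewhere. Most steps inside narrow domains, and all in the widest class, hold fewer than 20 starts.

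Most of the starts left outside were CpG-rich. A start near another such narrow domain as well, as at Igf2bp2, Runx1 and Ephb2, was counted for each. Among the 204 starts within 2 kb of narrow domains that held no start, the median promoter of 300 bases had 26 CG (interquartile range 15 to 34.3), and among the 141 starts inside narrow domains 11 (6 to 18). CpG-rich promoters, defined by a GC content of at least 50% and an observed over expected CG ratio of at least 0.6, made up 73.5% (66.9 to 79.4%) of the starts outside and 31.9% (24.3 to 40.3%) of those inside, against 46.5% of all autosomal coding promoters in the table. In domains of 10 to 40 kb the shares were 69.3% (64.1 to 74.1%) outside and 37.4% (34.5 to 40.3%) inside, and in the widest class 88.9% (65.3 to 98.6%) of 18 starts outside and 47.2% (41.3 to 53.2%) inside, so the outside share was the higher in each of the 3 width classes. The median GC content was 67.5% outside and 56.3% inside narrow domains, and the part of base composition in where a domain ended was not tested. The median distance of the outside starts to the border was 378 bp, and 120 of the 204 (58.8%) lay within 500 bp. In 134 of the 204 (65.7%, 58.7 to 72.2%) the domain lay on the gene's side of the start, against 40.6% (35.4 to 46.1%) of the 342 outside starts of domains of 10 to 40 kb. At 22 of the 187 narrow domains (11.8%) the start sat in a gap of 5 kb or less between the domain and another WT domain, as at Pou4f1 (gap 2100 bp) and Igf2bp2 (gap 1800 bp). No gap between autosomal domains was shorter than 1600 bp in Utx-cKO and 1750 bp in WT, so shorter unmarked stretches cannot be seen in these lists.

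**Figure D4:**
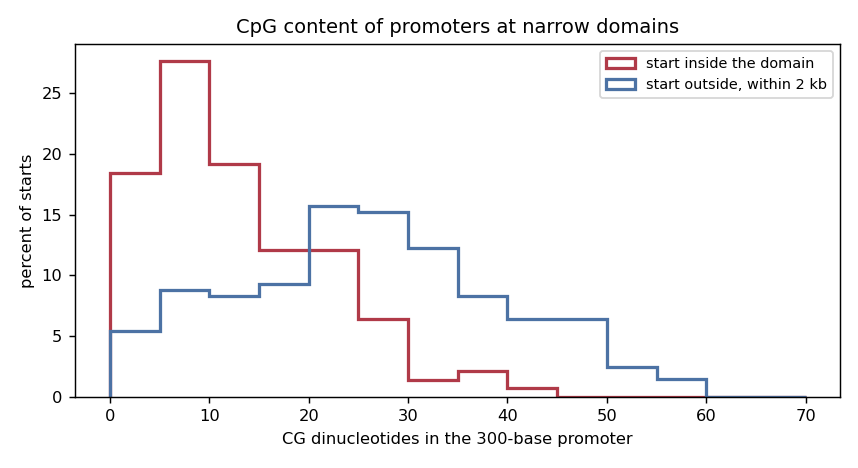
Distribution of the number of CG dinucleotides in the 300-base promoter for 141 starts inside narrow domains and 204 starts outside but within 2 kb of narrow domains that held none, as percent of starts in steps of 5. The starts outside have a median of 26 CG and those inside 11. A start near another such domain as well is counted for each.

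The Utx-cKO counterparts of the narrow domains were on balance wider, and the same was seen when the rule was turned round. The counterpart, the widest overlapping Utx-cKO domain, had a median width of 9750 bp (7300 to 14350 bp), against 8000 bp in WT, and the median ratio of Utx-cKO over WT width was 1.21 (interquartile range 0.99 to 1.93). It was wider than the WT domain in 534 cases (69.4%, against 50.4% of all shared autosomal WT domains). It was narrower in 208 (27%, against 47.9%) and equal in 28 (3.64%, against 1.69%). It was at least 1.5 times as wide at 282 (36.6%, 33.2 to 40.1%), against 19.4% of all shared autosomal WT domains, and at most 1/1.5 as wide at 14 (1.82%), against 14.4%. The rule chose the members for being narrow in WT, so these values describe the choice and nothing is read from them. Utx-cKO domains under 10 kb that overlapped a WT domain numbered 828, of 1089 on the autosomes. Their WT counterparts had a median width of 10180 bp, against 8000 bp for the Utx-cKO domains themselves, a median ratio of WT over Utx-cKO of 1.27, and were at least 1.5 times as wide at 337 (40.7%, 37.3 to 44.1%), against 20.7% of all shared autosomal Utx-cKO domains. Ratios of 4 or more occurred at 52 (6.75%, 5.08 to 8.76%) of the narrow WT domains, against 1.86% of all shared autosomal WT domains. Turned round, they occurred at 83 (10%, 8.06 to 12.3%) of the narrow Utx-cKO domains, against 1.18% of Utx-cKO domains of 10 to 40 kb. Counterparts were on balance wider in whichever genotype was not used for the choice.

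**Figure D5:**
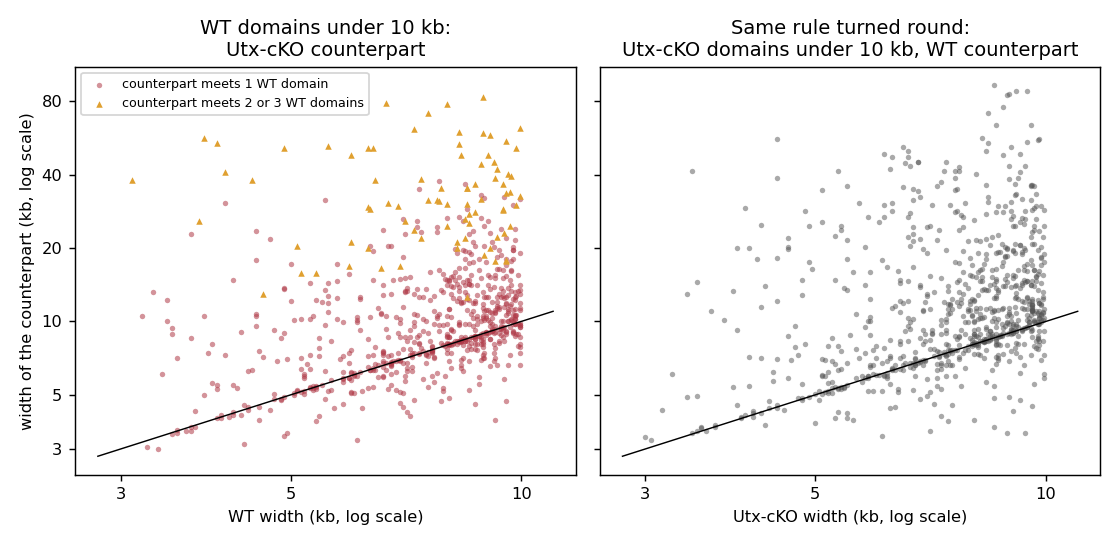
Width of the counterpart against the width of the domain, in kb on log scales, with the line of equal widths. Left, the 770 WT domains under 10 kb and their Utx-cKO counterparts, with triangles where the counterpart met 2 or 3 WT domains; right, the 828 Utx-cKO domains under 10 kb and their WT counterparts. In both panels more points lie above the line than below it, with median ratios of 1.21 on the left and 1.27 on the right.

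Most narrow domains had maxima within 500 bp of each other in the 2 lists, and 32.5% had both borders within 1 kb, against 17% of all shared domains. Each narrow domain had a single counterpart, which covered a median of 99.5% of it. In all, 375 (48.7%) lay wholly inside the counterpart, against 29.1% of all shared domains. The rule asked for overlap and for a small WT width, so this coverage partly follows from the choice of members. The counterpart was itself under 10 kb at 401 (52.1%, 48.5 to 55.7%), 10 to 40 kb wide at 343 (44.5%) and 40 kb or wider at 26 (3.38%). Both borders lay within 1 kb of those in Utx-cKO at 250 (32.5%, 29.2 to 35.9%). That share was 15.2% (14.2 to 16.4%) at 10 to 40 kb and 6.96% (4.81 to 9.68%) in the widest class. A limit of 1 kb is a larger part of the width of a short domain. The maxima of the 2 lists were a median of 250 bp apart and within 500 bp at 505 (65.6%, 62.1 to 68.9%). The shares within 500 bp were 46.5% (45 to 48%) at 10 to 40 kb and 47.8% (43.2 to 52.5%) in the widest class, where a maximum has more room to move. The WT domains under 10 kb had a Utx-cKO counterpart in 93.1% of cases (91.2 to 94.7%), those of 10 to 40 kb in 85.9% (84.9 to 86.8%) and all 460 of 40 kb or wider. In the other direction, 828 of 1089 autosomal Utx-cKO domains under 10 kb overlapped a WT domain (76%, 73.4 to 78.5%). The autosomal Utx-cKO list was the longer, with 7033 domains against 6126 in WT.

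The widest counterparts also met other WT domains. The counterpart met 2 or 3 WT domains at 83 of the 770 (10.8%, 8.68 to 13.2%), against 10.6% of all shared domains. Among domains with a ratio of 1.5 or more it did so at 82 of 282 narrow ones (29.1%, 23.8 to 34.8%), against 43.7% (40.7 to 46.8%) of all shared ones. All 10 domains with the largest ratios were of this kind. The largest lay within a gene near Ccm2l (chromosome 2, 153072101 to 153075950), at 56300 bp in Utx-cKO and 3850 bp in WT, a ratio of 14.6. At Tbx1, a T-box factor of the pharyngeal arches, the widths were 53700 bp in Utx-cKO and 4000 bp in WT, and the WT domain (chromosome 16, 18582701 to 18586700) lay 5850 bp from the next WT domain. At Uncx, a homeobox factor of somites, they were 37900 bp in Utx-cKO and 3100 bp in WT, the narrowest of all, and the WT domain (chromosome 5, 139540551 to 139543650) lay 1800 bp from the next. Fgf9, a growth factor, had 51400 bp in Utx-cKO and 4900 bp in WT. Otx1, a homeobox factor of the forebrain, had 41050 bp in Utx-cKO and 4100 bp in WT. The domains at Dgkg, a diacylglycerol kinase, at Kcna6, a potassium channel, near Pax2, a kidney and eye factor, near Tmem30b and at Rpl36-ps8 had ratios of 9.31 to 11.8. The gap from these 10 narrow domains to the next WT domain ran from 1800 to 11950 bp.

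Some counterparts were shorter than the narrow domain. The smallest ratio, 0.43, lay at a start within Robo2, an axon guidance receptor (chromosome 16, 74407701 to 74416950), with widths of 3950 bp in Utx-cKO and 9250 bp in WT and maxima of 27.6 in Utx-cKO and 30.1 in WT. The domain near Blcap had 4700 bp in Utx-cKO and 9550 bp in WT. The domain at a start of Grid2ip, whose product binds a glutamate receptor in cerebellum, had 4600 bp in Utx-cKO and 8700 bp in WT. Gpc6, a glypican, had 3250 bp in Utx-cKO and 6100 bp in WT, and Ppp1r3g, a regulator of glycogen metabolism, 4100 bp in Utx-cKO and 7150 bp in WT. Of the other narrowest WT domains, that at Sox11, a neural Sox factor, measured 3050 bp in Utx-cKO and 3250 bp in WT, that at Elobl 3000 bp in Utx-cKO and 3350 bp in WT, and that at Pde3b, a phosphodiesterase, 10550 bp in Utx-cKO and 3200 bp in WT.

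The starts that narrow domains left outside mostly stayed outside in Utx-cKO. Of the 187 narrow domains with outside starts only, the Utx-cKO counterpart held such a start at 43 (23%, 17.2 to 29.7%). Of the 123 that held a start, the counterpart held none of those starts at 7 (5.69%, 2.32 to 11.4%). At 10 to 40 kb the counterpart held a start left outside at 63 of 298 (21.1%, 16.6 to 26.2%) and held none of the starts inside at 124 of 906 (13.7%, 11.5 to 16.1%), and in the widest class at 4 of 16 (25%, 7.27 to 52.4%) and 31 of 195 (15.9%, 11.1 to 21.8%). Turned round, the WT counterpart held a start that a narrow Utx-cKO domain left outside at 38 of 180 (21.1%, 15.4 to 27.8%), and held none of those inside at 9 of 118 (7.63%, 3.55 to 14.0%). The genes named next were picked after their values were seen. At Flt4, a receptor of lymphatic vessels, the start lay 29 bp outside the WT domain, less than the 50 bp grid on which the borders fall. It lay inside the Utx-cKO domain, with widths of 7300 bp in Utx-cKO and 4100 bp in WT. At Slit2, an axon guidance ligand, the start lay 96 bp outside the WT domain and inside the Utx-cKO one, with 9750 bp in Utx-cKO and 8450 bp in WT. The Slit2 start, at 47983155, fell in the first 50 bp of the Utx-cKO domain, which began at 47983151. At Kitl, the ligand that melanocytes need, the start lay 121 bp outside the WT domain and inside the Utx-cKO one, with 19550 bp in Utx-cKO and 9750 bp in WT. In the other direction, the start of Gata5, a heart and endoderm factor, lay 478 bp inside the WT domain and outside the Utx-cKO one, although the Utx-cKO domain was wider, 10100 bp against 8950 bp in WT. The start of Irx3, an Iroquois homeobox factor, lay 3 bp inside the WT domain, less than the 50 bp grid, and outside the Utx-cKO one. The starts of Cldn11, Shisa7 and Tbx21, also outside in Utx-cKO, lay 30, 4 and 30 bp inside the WT domain, again less than the grid.

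The shares of narrow domains at homeobox and other developmental transcription factors were near or below those of all shared domains. Of 15 gene classes given by symbol patterns, homeobox factors were at the ends of 16 narrow domains (2.08%), against 2.84% of all shared domains, 2.31% of those of 10 to 40 kb and 8.91% of those of 40 kb or wider. Other developmental factors were at 22 (2.86%, against 2.97%), with 2.26% at 10 to 40 kb and 9.57% in the widest class. Highest after Pou4f1 and Barhl1 among homeobox genes were Nkx3-2, a skeletal factor, with 48150 bp in Utx-cKO and 8350 bp in WT, and Onecut3, with 22800 bp in Utx-cKO and 8550 bp in WT. Among the other factors Tbx2 was followed by Gata5, by Sp9, a forebrain factor beside Cir1, with 8500 bp in Utx-cKO and 8550 bp in WT, and by Ebf4, with 6150 bp in Utx-cKO and 7750 bp in WT. Signalling ligands and receptors were at 27 narrow domains (3.51%, against 2.1%), with 1.66% at 10 to 40 kb and 3.7% in the widest class. Ion channels and neurotransmitter receptors were at 27 (3.51%, against 2.43%), with 2.24% at 10 to 40 kb and 2.39% in the widest class. No test was made of these shares. The signalling pattern also takes in Igf2bp2, which is no ligand. Its highest members beside Igf2 and Igf2bp2 were Gdf7, a BMP-like ligand beside Ldah, with 16800 bp in Utx-cKO and 6950 bp in WT, and Flt4. The highest channel domains were at Kcnk15, a potassium channel, beside Rims4, with 4350 bp in Utx-cKO and 4700 bp in WT, at Cacna1i, a calcium channel, with 26500 bp in Utx-cKO and 8850 bp in WT, and at Kcnc1, a potassium channel, with 29400 bp in Utx-cKO and 6300 bp in WT.

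The remaining coding classes were each at 11 narrow domains or fewer, given here beside the shares over all shared domains and with no test. Cell adhesion genes were at 9 (1.17%, against 0.891%), led by Pcdh8, Adgrl3, a latrophilin, Cdh11, a mesenchymal cadherin, and Cldn11, a claudin, whose widths were 5000 bp in Utx-cKO and 5050 bp in WT. Matrix genes and proteases were at 11 (1.43%, against 0.966%), led by Acan, Col13a1, Col27a1 and Mmp24. Col13a1 measured 45250 bp in Utx-cKO and 9200 bp in WT, and Col27a1 4400 bp in Utx-cKO and 6200 bp in WT. Solute carriers were at 9 (1.17%, against 1.36%), zinc finger genes at 7 (0.909%, against 0.724%), immune genes at 4 (0.519%, against 0.78%) and olfactory or vomeronasal receptors at 3 (0.39%, against 0.65%). The highest of these were at Zfp536, with 8100 bp in Utx-cKO and 8150 bp in WT, at Il27ra beside Rln3, with 4800 bp in Utx-cKO and 4750 bp in WT, and at Zar1, an oocyte gene, with 11450 bp in Utx-cKO and 9500 bp in WT. Zar1 stands there through a neighbour that matches the solute carrier pattern. No narrow domain lay at a gene of the Polycomb, UTX and COMPASS machinery, against 0.0557% of all shared domains (3 domains), or at a cell cycle inhibitor, against 0.0186% (1 domain).

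Epidermal genes were at 2 narrow domains (0.26%), a share near that of all shared domains (0.316%). One of these lay at the late cornified envelope genes Lce3a and Lce3b (chromosome 3, 92922851 to 92932650), with 21550 bp in Utx-cKO and 9800 bp in WT and maxima of 15.0 in Utx-cKO and 10.6 in WT. Among 31 cell type markers, none of the 12 keratinocyte genes, such as Krt5, Krt14 and Krt10, had a domain of any width at an end in either list, while 5 of 6 fibroblast, 1 of 3 endothelial, 2 of 5 melanocyte and 3 of 5 immune genes had one in both. A narrow domain was found at 1 marker, the fibroblast collagen gene Col1a1 (chromosome 11, 94929401 to 94937500), with 6450 bp in Utx-cKO and 8100 bp in WT and maxima of 23.01 in Utx-cKO and 19.7 in WT.

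Imprinted genes were at 4 narrow domains (0.519%, against 0.539%). Beside Igf2 these were Peg3 with Usp29, at 5450 bp in Utx-cKO and 5400 bp in WT, Ppp1r9a, at 7400 bp in Utx-cKO and 7200 bp in WT, and Slc22a2, at 8650 bp in Utx-cKO and 6950 bp in WT. The lists do not separate the parental alleles. MicroRNA genes were at 4 narrow domains (0.519%, against 1.37%). The mature sequences of Mir128-2 and Mir199b, the 2 whose domain was shorter in Utx-cKO, are given from RefSeq (GRCm38.p6), with the seed, bases 2 to 8, in capitals.
mmu-miR-128-3p: uCACAGUGaaccggucucuuu
mmu-miR-128-2-5p: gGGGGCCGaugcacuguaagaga
mmu-miR-199b-3p: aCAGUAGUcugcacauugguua
The seeds differ from each other. At Mir128-2, a brain-enriched microRNA gene, the domain (chromosome 9, 112116151 to 112124050) was 5200 bp wide in Utx-cKO and 7900 bp in WT. Both mature sequences lay inside the WT and the Utx-cKO domain. At Mir199b the domain (chromosome 2, 32312701 to 32321500) was 5550 bp wide in Utx-cKO, where it ended at 32318250, before the mature sequence at 32318524, and 8800 bp in WT. A further mature sequence inside this WT domain, mmu-miR-3154 at 32318317, also lay past the Utx-cKO end. Mir6380 had 9150 bp in Utx-cKO and 8150 bp in WT, and Mir1971 31800 bp in Utx-cKO and 9950 bp in WT.

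The limit of 10 kb cuts through a continuous range of widths. Just inside it, at 9950 bp in WT, lay domains near Ncoa2, near Plekha6 and at Mroh9, with maxima of 13.8, 22.6 and 14.3. Just outside, at 10000 bp, lay domains at Onecut3, at Fndc3a and near Pced1b, with maxima of 20.8, 49.6 and 10.9. The share of narrow domains among shared WT domains ran from 10.3% on chromosome 13 to 22.4% on chromosome 16. The next WT domain lay within 5 kb at 112 (14.5%, 12.1 to 17.2%), against 14.4% (13.3 to 15.5%) of domains of 10 to 40 kb, and the median gap was 44780 bp, against 26600 bp.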

How the data were processed

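H3K27me3 CUT&RUN signal was taken from 2 peak lists. Per the file headers, the authors called SEACR peaks (spelled SECAR there) on data merged from all samples of a group. The tools listed in the submitters' processing notes are SAMtools 1.9, deepTools, bedtools 2.27.1 and Bowtie2 2.3.4.3, and the builds mm10, GRCm38 and sacCer3. How the yeast genome was used, the SEACR settings and how coverage was scaled: not given in the sources used here. The deposited signal values are the total and the highest coverage of each peak, the authors' own, and served to describe and rank peaks inside 1 list at a time. SEACR's usual column order was assumed, as the lists name no columns. Values per library and IgG libraries were not analysed here.

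Peaks were intersected in Python 3.11.15 (pandas 2.3.3, SciPy 1.17.1) by at least 1 bp, and the widest overlapping peak was the counterpart. Gene borders (20665 autosomal coding genes), transcription starts and promoter sequences came from RefSeq for GRCm38.p6, the build of the lists. The intersections were checked on simulated peaks. Shares have exact Clopper-Pearson 95% intervals. The members, gene classes and tests were chosen with earlier results of these data known. Named were the 10 domains with the highest maximum signal, the 10 with the largest and 5 with the smallest width ratio, the 5 narrowest, 3 on either side of the width limit, up to 4 per gene class, and domains at epidermal genes or cell type markers; predicted gene models were left out, and a few domains that the rule names are not reported here. Alternatives covered the width limit, the overlap, merged peaks, a common floor of total signal, the stronger part of each list, the gene end rule and the choice of counterpart.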

Additional observations from a re-analysis of the deposited data

How the results depend on the processing

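Lists pooled per genotype limit everything here: no library could be left out, depth is unknown, and no paired analysis was possible because each list holds a single merged column. The stricter lists by total signal and the alternatives on starts were chosen after seeing the data. Of 45 alternative values, 26 stayed within the 95% interval of the value reported (counts within 1.5 times). The median width ratio of 1.21 turned to 0.79 when members were chosen by Utx-cKO width, as the choice of members sets its direction; it was 1.04 with 50% of both peaks covered, 1.14 with counterparts that met a single WT domain, and 1.33 in the top 50% of each list by total signal. The share with a counterpart at least 1.5 times as wide was 16.4%, 29.1% and 42.9% under the same 3 settings. A width limit of 8000 bp or 12000 bp gave 372 or 1312 domains, a median maximum signal of 29.1 or 21.7, and 62.1% or 47.5% at a coding gene end. The top 50% of each list left 154 domains, with a median maximum signal of 41.7 and 70.1% at a coding gene end. That share was 28.7% with the gene end inside the domain, 63.0% within 5 kb and 40.3% counting transcription starts alone. The share of domains near a start that held none, 60.3%, ran from 55.4% to 64.9%.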
